A study of Mus musculus with 6 samples.

Results

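Complex I, NADH:ubiquinone oxidoreductase, was followed at the transcript level in kidneys of mice with cisplatin-induced chronic kidney disease (CKD). Its nuclear genes were taken as the protein-coding genes whose GENCODE symbol begins with Nduf, which gave 48 of the 56691 genes in the count files, 21630 of them protein-coding. These 48 are 7 core subunits, 33 genes grouped as accessory and 8 Ndufaf assembly factors. A further 7 genes with Nduf names are annotated as pseudogenes or a long noncoding RNA and were left out. Total RNA of whole kidney was sequenced from 3 C57BL/6 male mice given 4 intraperitoneal injections of 8 mg/kg cisplatin and from 3 C57BL/6 male mice injected with saline (control). The mice came from in-house colonies, were 9 weeks old when the injections began and were examined at the end of week 7. Each mouse gave 1 library, and the labels name no transgene or deletion. A whole kidney holds many cell types, so fewer cells of a type and less RNA per cell cannot be told apart.

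Complex I is the entry point of electrons from NADH into the respiratory chain and pumps protons across the inner mitochondrial membrane. Its L shape has a matrix arm, where the flavin and the iron-sulfur clusters carry electrons to ubiquinone, and a membrane arm, where the protons move. The core subunits do the catalysis and are split between the nuclear and the mitochondrial genome, the accessory subunits surround and stabilise the core, and the assembly factors help to build the enzyme but are absent from the finished form. In the kidney, the proximal tubule is rich in mitochondria and spends much ATP on reabsorption.

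The counts used were read pairs on the strand of the transcript, 21891855 to 25356523 in the cisplatin libraries and 24111688 to 26627554 in the control libraries. Nduf genes took 0.320%, 0.350% and 0.360% of the counts in cisplatin libraries 1, 2 and 3, and 0.398%, 0.394% and 0.385% in control libraries 1, 2 and 3. Levels are given below as CPM (counts per 1000000 counted pairs) after scaling by trimmed mean of M values (TMM) factors, which ran from 1.05 to 1.26 in cisplatin and from 0.844 to 0.894 in control libraries. Where 3 values are given per group, they are those of libraries 1, 2 and 3 in this order. Over 15662 genes the quasi-likelihood test of edgeR was applied, and a gene was called higher or lower at a Benjamini-Hochberg adjusted p under 0.05. Replicates of a group differed by more than counting noise, and more so between cisplatin libraries, where the chi-square per gene was 13.2 to 40.5, than between control libraries, where it was 4.96 to 7.19.

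Transcripts of complex I were lower in cisplatin-treated kidneys across nearly the whole set. Of 47 tested Nduf genes, 40 were lower and 0 were higher, where 22.8% of all tested genes were lower and 24.5% were higher by the same test. The 7 genes not called were 5 accessory and 2 assembly genes. The median log2 fold change of the 47 was −0.56, or 67.9% of the control level, against 0.05 for all tested genes. Scaled by library totals, which put the median of all tested genes at 0.48, 17 were lower, 2 were higher and the median was −0.14. With that scaling 8.78% of all tested genes were lower, and 8508 of 15662 were higher. In 43 of the 47 genes all cisplatin values were below all control values, which was the case for 27.6% of all tested genes. Genes of like abundance give a closer background: of 1580 protein-coding genes within the interquartile range of the members' mean level, 660 were lower, and their median log2 fold change was −0.17. Summed over the Nduf genes, the level was 2548, 2973 and 3438 CPM in cisplatin kidneys (mean 2986 ± 445, SD, n = 3) and 4454, 4623 and 4570 CPM in control kidneys (mean 4549 ± 86.5, SD, n = 3).

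**Figure D1:**
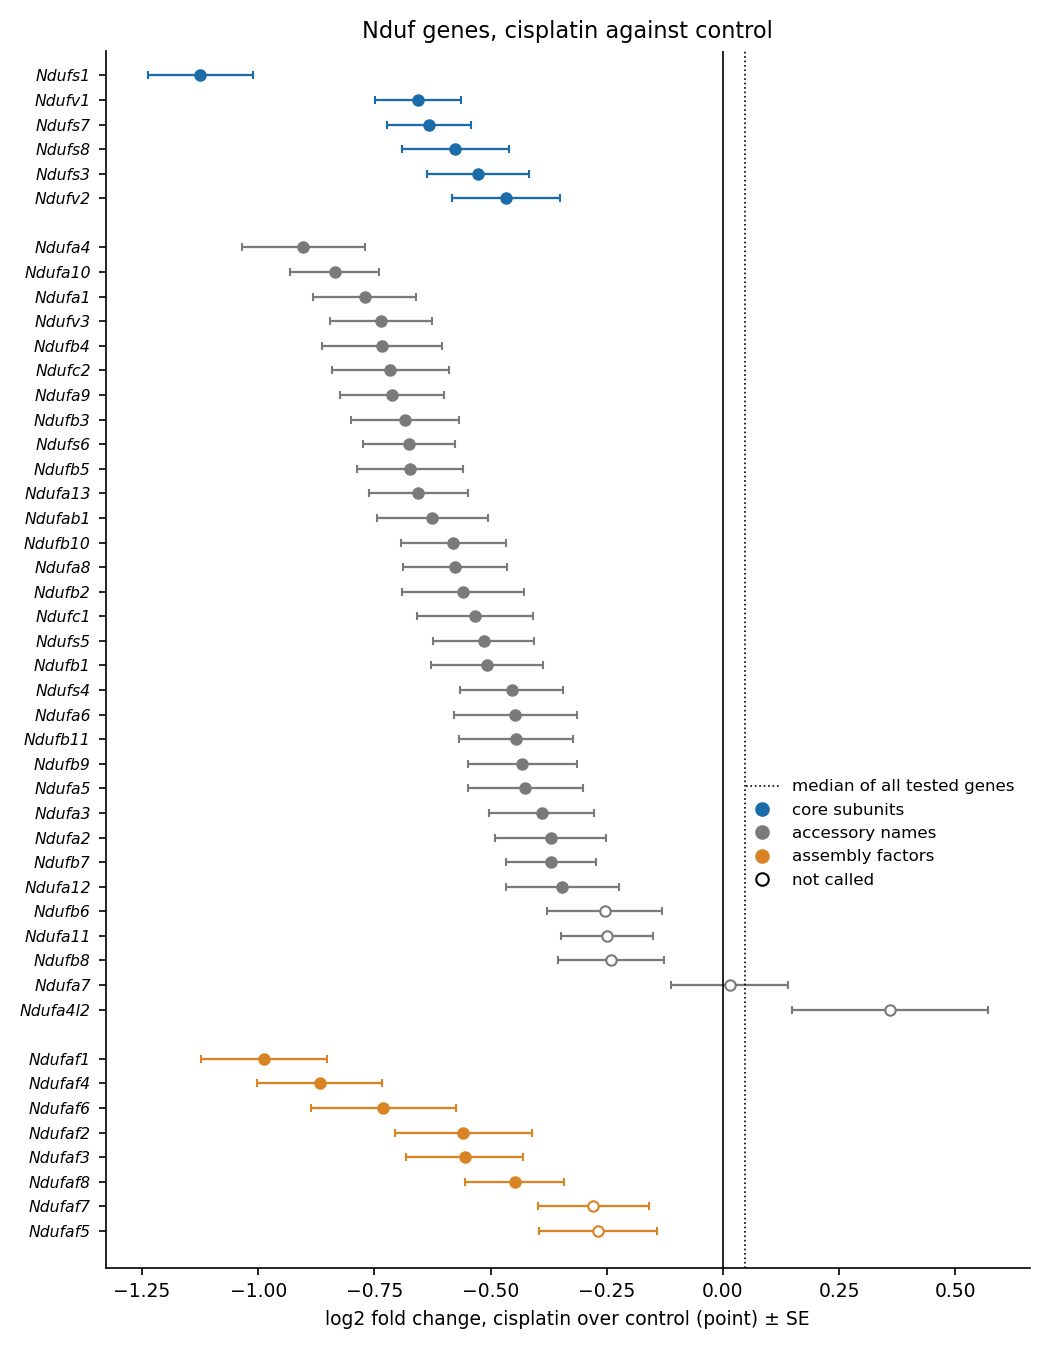
Log2 fold change of 46 tested Nduf genes, cisplatin over control (horizontal axis, point ± SE, 3 libraries per group), with core subunits, accessory names and assembly factors in blocks from top to bottom. Filled points are genes called lower (39 of the 46 shown), open points are genes not called, and the dotted line is the median of all tested genes at 0.05.

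All 7 nuclear core subunits fell, with a median log2 fold change of −0.63, and in each of them the groups did not overlap. The largest fall of the whole set was that of Ndufs1, the large iron-sulfur subunit of the module that oxidises NADH (GRCm39 chromosome 1, 63182058 to 63216236, minus strand). Ndufs1 had 110.3, 114 and 145 CPM in cisplatin kidneys, against 263, 268 and 272 CPM in control kidneys. Its level in cisplatin kidneys was 45.9% of control (log2 fold change −1.12, SE 0.113, edgeR adjusted p = 2.00e-05). Ndufv1 binds NADH and the flavin in the same module, and the small iron-sulfur subunit Ndufv2 sits beside it. Ndufv1 had 112, 128 and 128 CPM in cisplatin kidneys, against 196, 201 and 184 CPM in control kidneys (log2 fold change −0.66, SE 0.0919, edgeR adjusted p = 0.000199). Ndufv2 had 70.1, 71.9 and 94.5 CPM in cisplatin kidneys, against 111, 106 and 110.4 CPM in control kidneys (log2 fold change −0.47, SE 0.116, edgeR adjusted p = 0.00704). Of the 3 subunits of the NADH module Ndufs1 had the lowest log2 fold change, and Ndufv2 had the smallest fall of the 7 core genes; differences between genes were not tested.

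Further core subunits belong to the module that hands electrons to ubiquinone. Ndufs7 carries the last iron-sulfur cluster before ubiquinone. Ndufs7 had 34.3, 38.6 and 41.6 CPM in cisplatin kidneys, against 57.6, 59.9 and 59.8 CPM in control kidneys (log2 fold change −0.63, SE 0.0903, edgeR adjusted p = 0.000226). Ndufs8 holds further iron-sulfur clusters of the chain. Ndufs8 had 54.9, 59.5 and 75.5 CPM in cisplatin kidneys, against 92.6, 94.9 and 95.3 CPM in control kidneys (log2 fold change −0.58, SE 0.115, edgeR adjusted p = 0.00197). Ndufs3 is an early building block of the module and has no cofactor. Ndufs3 had 43.4, 51.0 and 59.2 CPM in cisplatin kidneys, against 72.9, 75.7 and 72.5 CPM in control kidneys (log2 fold change −0.53, SE 0.110, edgeR adjusted p = 0.00259). In Ndufs7, Ndufs8 and Ndufs3 cisplatin library 1 had the lowest value and cisplatin library 3 the highest, and the highest was still below all control values.

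**Figure D2:**
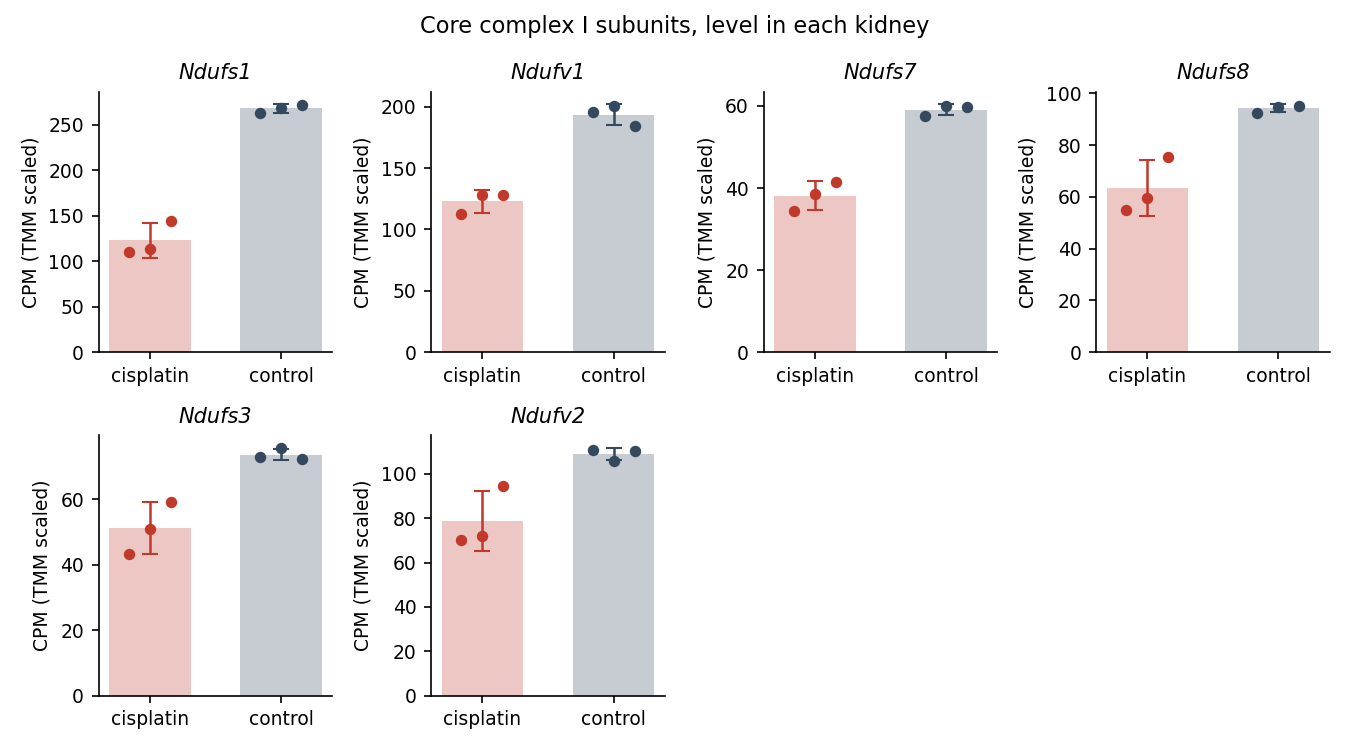
TMM-scaled CPM (vertical axis, from 0, a scale per panel) of 6 core subunits in cisplatin (left) and control kidneys (right). Points are libraries 1 to 3 from left to right, bars are means and whiskers are SD (n = 3 each). All cisplatin points lie below all control points in every panel, with Ndufs1 at 123 ± 18.8 CPM in cisplatin and 268 ± 4.49 CPM in control kidneys.

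Because a fold change depends on how libraries are scaled, the make-up of the set was also read as shares of the Nduf counts, which no scaling alters. Core subunits made up 21.5%, 20.3% and 20.2% of the Nduf counts in cisplatin libraries 1, 2 and 3, against 23.2%, 22.9% and 22.7% in control libraries 1, 2 and 3. The cisplatin shares were all below the control shares. Without Ndufs1, however, the shares of the other 6 core genes overlapped, at 16.7% to 18.0% in cisplatin and 17.8% to 18.3% in control libraries, so that the separation was not seen without this gene. Ndufs1 alone had 4.33%, 3.83% and 4.20% of the Nduf counts in cisplatin libraries, against 5.91%, 5.80% and 5.96% in control libraries. Accessory genes took 75.4% to 76.8% in cisplatin and 73.7% to 74.2% in control libraries, with no overlap. The classes are parts of the same total, so this larger share is tied to the smaller core share. The accessory share without Ndufs1 in the total was not computed. Assembly factors took 2.97% to 3.14% in cisplatin and 3.05% to 3.14% in control libraries, which overlapped. Gene by gene, 12 of the 47 had a smaller share in every cisplatin library than in every control library, 17 had a larger share and 18 overlapped. These shares too are parts of the same total, and no such count was made for other sets of genes as a background. A larger share goes with a log2 fold change above that of the summed set, which was a smaller fall in most of the 17 and included Ndufa7 (0.01) and Ndufa4l2 (0.36), neither of them called.

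Of the 33 accessory genes 32 were tested, 27 were lower and 5 were not called, with a median log2 fold change of −0.52. By position in the enzyme, 8 of 9 matrix-arm accessory subunits were lower (median −0.45), as were 17 of 20 membrane-arm subunits (median −0.55) and Ndufab1, the acyl carrier protein present in both arms (log2 fold change −0.63, SE 0.119, edgeR adjusted p = 0.00147). These medians were descriptions, and the arms were not tested against each other. Their ranges overlapped, from −0.74 to 0.01 in the matrix arm and from −0.84 to −0.24 in the membrane arm.

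The largest fall among accessory subunits was in Ndufa10, a matrix-facing subunit of the membrane arm with a fold like that of nucleoside kinases (GRCm39 chromosome 1, 92361375 to 92401613, minus strand). Ndufa10 had 77.2, 91.0 and 93.1 CPM in cisplatin kidneys, against 150.4, 161 and 155 CPM in control kidneys (log2 fold change −0.84, SE 0.0959, edgeR adjusted p = 5.08e-05). Ndufa1, a small X-linked membrane protein near the junction of the arms, came next. Ndufa1 had 66.2, 82.1 and 89.4 CPM in cisplatin kidneys, against 135, 133 and 137 CPM in control kidneys (log2 fold change −0.77, SE 0.111, edgeR adjusted p = 0.000236). Ndufb4, Ndufc2 and Ndufb3 are further membrane-arm subunits. Ndufb4 had 30.4, 35.8 and 45.3 CPM in cisplatin kidneys, against 59.4, 64.6 and 61.2 CPM in control kidneys (log2 fold change −0.73, SE 0.129, edgeR adjusted p = 0.000896). Ndufc2 had 47.2, 57.9 and 69.8 CPM in cisplatin kidneys, against 92.6, 95.6 and 98.8 CPM in control kidneys (log2 fold change −0.72, SE 0.127, edgeR adjusted p = 0.000937). Ndufb3 had 41.2, 47.7 and 58.0 CPM in cisplatin kidneys, against 77.3, 78.0 and 80.3 CPM in control kidneys (log2 fold change −0.68, SE 0.116, edgeR adjusted p = 0.000717). In all 5 of these membrane-arm genes the groups did not overlap, and the lowest value was that of cisplatin library 1.

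In the matrix arm the lowest was Ndufv3, an accessory subunit of the NADH module. Ndufv3 had 82.5, 103 and 108 CPM in cisplatin kidneys, against 156, 171 and 162 CPM in control kidneys (log2 fold change −0.74, SE 0.110, edgeR adjusted p = 0.000307). Ndufa9 binds a nucleotide cofactor and lies where the matrix arm meets the membrane. Ndufa9 had 84.2, 99.1 and 113 CPM in cisplatin kidneys, against 155, 164 and 167 CPM in control kidneys (log2 fold change −0.71, SE 0.112, edgeR adjusted p = 0.000420). Ndufs6 binds zinc and joins late in assembly. Ndufs6 had 34.8, 42.3 and 43.7 CPM in cisplatin kidneys, against 66.5, 64.1 and 62.2 CPM in control kidneys (log2 fold change −0.68, SE 0.0988, edgeR adjusted p = 0.000265). Again no cisplatin value reached a control value in these 3 genes. The remaining 18 accessory genes called lower were 12 membrane-arm and 5 matrix-arm subunits and Ndufab1. Their log2 fold changes ran from −0.67 to −0.35, with adjusted p from 0.000507 to 0.0374 (edgeR), and their mean levels from 11.3 to 157 CPM in cisplatin and from 16.6 to 247 CPM in control kidneys.

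Accessory subunits that did not pass the test were Ndufa7 of the matrix arm and Ndufb6, Ndufa11 and Ndufb8 of the membrane arm. Ndufa7 stood nearest to no difference. Ndufa7 had 61.8, 77.7 and 90.5 CPM in cisplatin kidneys, against 73.1, 80.2 and 74.3 CPM in control kidneys (log2 fold change 0.01, SE 0.126, edgeR adjusted p = 0.934), so that the cisplatin values lay on both sides of the control values. As a share of the Nduf counts, Ndufa7 had 2.43%, 2.61% and 2.63% in cisplatin libraries, above the 1.64%, 1.73% and 1.63% in control libraries. Ndufb8 had 104, 126 and 143 CPM in cisplatin kidneys, against 145, 147 and 149 CPM in control kidneys (log2 fold change −0.24, SE 0.114, edgeR adjusted p = 0.104). Ndufb6 had 61.0, 75.1 and 88.0 CPM in cisplatin kidneys, against 87.4, 94.4 and 85.4 CPM in control kidneys (log2 fold change −0.25, SE 0.123, edgeR adjusted p = 0.113). Ndufa11 had 35.9, 41.9 and 44.6 CPM in cisplatin kidneys, against 45.1, 51.1 and 49.2 CPM in control kidneys (log2 fold change −0.25, SE 0.0994, edgeR adjusted p = 0.0607). Ndufb8 and Ndufa11 had every cisplatin value below every control value although the test was not passed, whereas Ndufb6 overlapped through cisplatin library 3. Without cisplatin library 3 these 3 genes passed the test as lower, with log2 fold changes of −0.38 for Ndufb8, −0.42 for Ndufb6 and −0.35 for Ndufa11. Ndufa11 also passed with size factors of DESeq2 in edgeR (−0.28, adjusted p = 0.0457) and with counts that ignore the strand (−0.27, adjusted p = 0.0464), and Ndufb6 passed with no low-count filter (−0.27, adjusted p = 0.0453).

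The symbol rule also takes in 3 genes that are not established complex I subunits. Ndufa4, named for complex I but now placed in complex IV (cytochrome c oxidase), fell as well, with a log2 fold change below that of every accessory subunit. Ndufa4 had 164, 191 and 241 CPM in cisplatin kidneys, against 373, 368 and 372 CPM in control kidneys (log2 fold change −0.90, SE 0.132, edgeR adjusted p = 0.000258). Its relative Ndufa4l2, known as a hypoxia-inducible gene that lowers complex I activity, was near the lower limit of the data with 32 to 65 counts per library. Ndufa4l2 had 2.24, 1.68 and 2.57 CPM in cisplatin kidneys, against 1.77, 1.70 and 1.54 CPM in control kidneys (log2 fold change 0.36, SE 0.210, edgeR adjusted p = 0.182), and the groups overlapped. Ndufb11b, a gene with 1 annotated exon, had 0 counts in all 6 libraries and was not tested. A count of 0 allows up to 3 counts, which is 0.101 to 0.146 CPM in these libraries, by counting error only. With these 3 left out, 39 of 45 genes were lower, with a median log2 fold change of −0.56.

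Most assembly factors fell too. Of 8 Ndufaf genes, 6 were lower and 2 were not called, and their median log2 fold change was −0.56, as it was for the 37 subunits. The largest fall was in Ndufaf1, which helps to assemble the membrane arm (GRCm39 chromosome 2, 119482683 to 119493359, minus strand). Ndufaf1 had 9.99, 11.9 and 14.8 CPM in cisplatin kidneys, against 23.2, 23.3 and 26.0 CPM in control kidneys (log2 fold change −0.99, SE 0.135, edgeR adjusted p = 0.000171). Ndufaf4 and its partner Ndufaf3 act on the module that binds ubiquinone. Ndufaf4 had 16.4, 18.9 and 24.7 CPM in cisplatin kidneys, against 36.0, 35.3 and 37.8 CPM in control kidneys (log2 fold change −0.87, SE 0.134, edgeR adjusted p = 0.000372). Ndufaf3 had 8.54, 10.2 and 12.0 CPM in cisplatin kidneys, against 14.9, 15.4 and 14.8 CPM in control kidneys (log2 fold change −0.56, SE 0.126, edgeR adjusted p = 0.00429). The 2 partners differed in size of change, but the difference between them was not tested.

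Ndufaf6 acts early in assembly of the same part of the enzyme. Ndufaf6 had 5.51, 6.33 and 8.72 CPM in cisplatin kidneys, against 11.3, 11.1 and 11.5 CPM in control kidneys (log2 fold change −0.73, SE 0.157, edgeR adjusted p = 0.00309). Ndufaf2, a relative of Ndufa12, holds the place of that subunit until late assembly. Ndufaf2 had 7.37, 7.88 and 11.0 CPM in cisplatin kidneys, against 13.1, 13.1 and 12.3 CPM in control kidneys (log2 fold change −0.56, SE 0.148, edgeR adjusted p = 0.0101). Ndufaf8 is the partner of Ndufaf5, an enzyme that modifies Ndufs7. Ndufaf8 had 9.37, 9.28 and 9.99 CPM in cisplatin kidneys, against 12.6, 14.3 and 12.2 CPM in control kidneys (log2 fold change −0.45, SE 0.106, edgeR adjusted p = 0.00555). Ndufaf5 had 6.34, 6.87 and 8.20 CPM in cisplatin kidneys, against 8.16, 8.67 and 8.90 CPM in control kidneys (log2 fold change −0.27, SE 0.127, edgeR adjusted p = 0.105). Ndufaf7, a mitochondrial methyltransferase, was not called either. Ndufaf7 had 13.5, 17.1 and 18.6 CPM in cisplatin kidneys, against 19.5, 19.9 and 20.1 CPM in control kidneys (log2 fold change −0.28, SE 0.119, edgeR adjusted p = 0.0764). Groups did not overlap in Ndufaf7 and in the 6 genes called lower, and in Ndufaf5 cisplatin library 3 lay just above control library 1. Ndufaf5 and Ndufaf7 were called lower without cisplatin library 3, both at −0.41, and Ndufaf2 missed the threshold without cisplatin library 2, at −0.49.

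**Figure D3:**
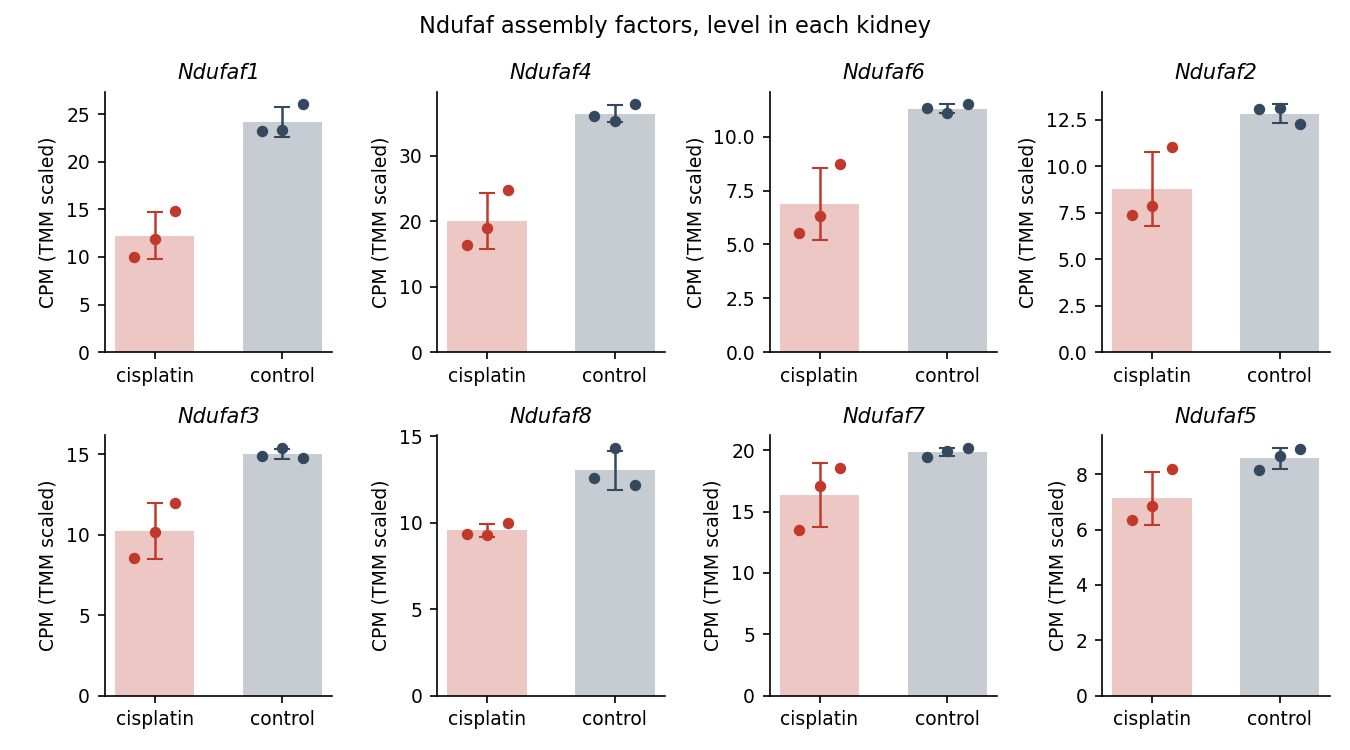
TMM-scaled CPM (vertical axis, from 0, a scale per panel) of the 8 Ndufaf assembly factors in cisplatin (left) and control kidneys (right). Points are libraries 1 to 3 from left to right, bars are means and whiskers are SD (n = 3 each). Ndufaf1 has the lowest log2 fold change of these genes, at 12.2 ± 2.44 CPM in cisplatin and 24.2 ± 1.58 CPM in control kidneys, and Ndufaf5 is the panel whose groups overlap.

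Genes of complex I outside the symbol rule were read from the same fit. Of 14 other assembly genes 12 were lower and 0 were higher, with a median log2 fold change of −0.61. Acad9, Ecsit and Timmdc1, which work with Ndufaf1 on the membrane arm, had log2 fold changes of −1.28 (SE 0.123, edgeR adjusted p = 1.44e-05), −0.88 (SE 0.100, edgeR adjusted p = 4.87e-05) and −0.73 (SE 0.0946, edgeR adjusted p = 0.000122). Aifm1, which supports import of subunits into the intermembrane space, had −0.91 (SE 0.107, edgeR adjusted p = 6.13e-05). Acad9 had 22.6, 26.6 and 32.7 CPM in cisplatin kidneys, against 69.2, 64.7 and 64.7 CPM in control kidneys. Foxred1 (−0.29, SE 0.112) and Sfxn4 (0.05, SE 0.199) were not called.

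Most of the tested core subunits encoded by the mitochondrial genome also fell. Of 7 mt-Nd genes 5 were tested and 4 were lower, with a median log2 fold change of −1.03. mt-Nd2 had 699.6, 554 and 569.9 CPM in cisplatin kidneys, against 1415, 1650.4 and 1715 CPM in control kidneys (log2 fold change −1.39, SE 0.129, edgeR adjusted p = 1.18e-05). The other 3 were mt-Nd4 (−1.29), mt-Nd1 (−1.03) and mt-Nd5 (−0.95). Both mt-Nd3 and mt-Nd4l had too few counts for the test. mt-Nd6, the mt-Nd gene on the other strand of the mitochondrial genome, was not called (0.12, SE 0.151). For comparison, 36 of 40 tested nuclear subunits of complexes II to V were lower, with a median log2 fold change of −0.55, which is near that of the Nduf genes. No test was made between complexes.

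Within the cisplatin group the Nduf genes kept a common order. Cisplatin library 1 had the lowest value of the 3 in 45 of 47 genes and cisplatin library 3 the highest in 45 of 47, while among all tested genes these shares were 36.7% and 37.0%. The order was not particular to them. The summed nuclear subunits of complexes II to V had 6576, 7628 and 8530 CPM in cisplatin libraries 1, 2 and 3. The other assembly genes had 241, 266 and 304 CPM, whereas the mt-Nd sum ran otherwise, at 5160, 4368 and 4612 CPM. Relative to the control mean, the median log2 deviation of the 47 was −0.79, −0.56 and −0.32 in cisplatin libraries 1, 2 and 3, against −0.03, 0.03 and 0.01 in control libraries 1, 2 and 3. When counts were divided by library totals instead, library 1 was lowest in 40 and library 3 highest in 30 of the 47. The median coefficient of variation was 16.4% in cisplatin and 3.83% in control libraries, and the cisplatin SD was the larger in 46 of 47 genes. Without cisplatin library 3 the median log2 fold change was −0.71 and 45 Nduf genes were lower, and without cisplatin library 1 they were −0.45 and 38. Of all tested genes 26.1% were lower without cisplatin library 3 and 22.4% without cisplatin library 1, with a median log2 fold change of 0.03 in both fits.

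**Figure D4:**
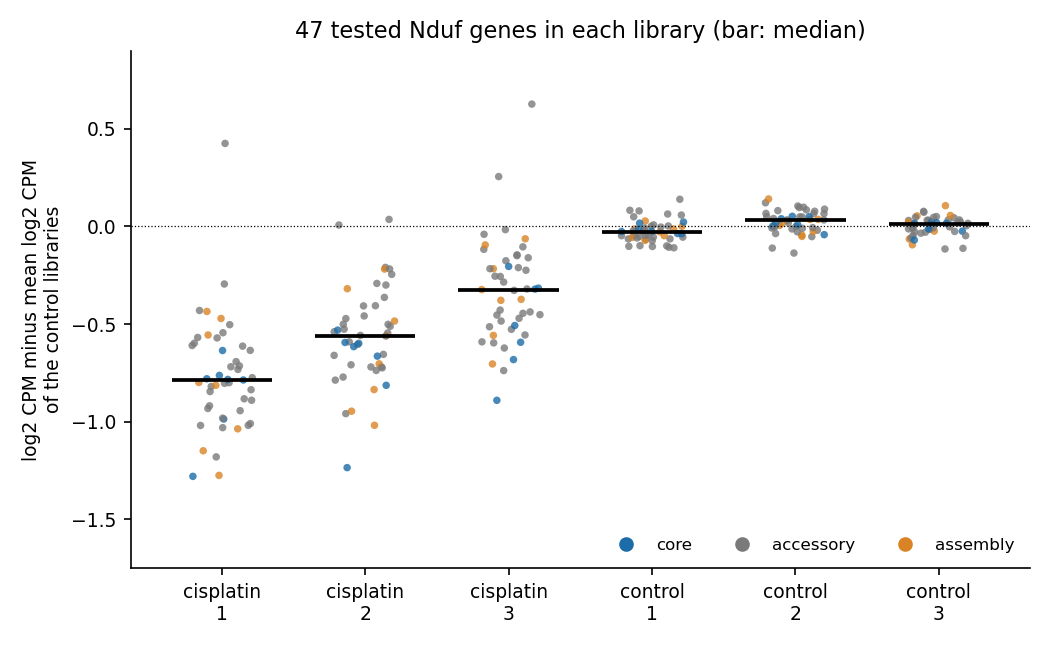
Log2 CPM of each of the 47 tested Nduf genes minus its mean log2 CPM over the control libraries (vertical axis), in the 3 cisplatin (left) and 3 control libraries (right). Points are genes, coloured by class, and bars are medians. The medians are −0.79, −0.56 and −0.32 in cisplatin libraries 1, 2 and 3 and within 0.03 of 0 in the control libraries.

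Markers of kidney cell types moved with the groups as well. Of 16 proximal tubule markers 15 were lower (median log2 fold change −0.96), and their sum was 7323 to 7410.0 CPM in cisplatin and 15457 to 17465 CPM in control kidneys. Macrophage markers were higher in 8 of 9 (median 1.66, sum 256 to 299 CPM in cisplatin and 84.8 to 103 CPM in control kidneys), and fibroblast markers in 5 of 6 (median 1.22, sum 399 to 664 CPM in cisplatin and 203 to 250.4 CPM in control kidneys). Collecting duct markers were higher in 7 of 10 (median 0.48), distal tubule markers lower in 3 of 4, thick ascending limb markers lower in 2 and higher in 2 of 5, and 2 of 3 tested lymphocyte markers were higher. None of the proximal tubule, macrophage and fibroblast markers was at 0. Between the cisplatin libraries the proximal tubule sum varied by 48.2 CPM (SD) around 7379 and did not follow the order of the Nduf sum. Single markers within this sum ran in opposite orders. Lrp2 had 1713, 1477 and 1387 CPM and Slc27a2 had 790, 895 and 982 CPM in cisplatin libraries 1, 2 and 3. The fibroblast sum was highest in cisplatin library 1, at 664 CPM against 421 and 399 CPM in cisplatin libraries 2 and 3. The part of these cell types in the lower Nduf levels was not tested.

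How far the Nduf genes fell depended on the scaling of the libraries. When each library was scaled by its total alone, the 2 genes called higher were Ndufa7 (0.43) and Ndufa4l2 (0.78). By class, 4 of 7 core genes (among them Ndufs1, Ndufv1 and Ndufs7), 11 of 32 accessory genes and 2 of 8 assembly genes (Ndufaf1 and Ndufaf4) were then lower. The proximal tubule markers then had 10 lower and 1 higher of 16, the mt-Nd genes 3 lower and mt-Nd6 higher (0.54), the other assembly genes 6 lower of 14 and complexes II to V 14 lower and 1 higher of 40. The median of the thick ascending limb markers turned positive (0.25, against −0.17 with TMM factors). Log2 fold changes of 9 genes below 0 with TMM factors were above 0 with library totals, none of them called higher. Of these, Ndufa12 (0.07), Ndufa2 (0.04), Ndufa3 (0.03) and Ndufb7 (0.05) had been called lower, and the other 5 had not been called. A change of scaling moves nearly all genes by a like amount, so distances between genes are kept by construction. Relative to the median of all tested genes the Nduf median stood at −0.61 with TMM factors, −0.61 with upper-quartile factors and −0.62 with library totals, and 46 of 47 Nduf genes were below that median in each. Against a minimum fold change of 1.5 in place of none, 6 of 47 genes passed as lower, among them Ndufs1, Ndufaf1, Ndufa4, Ndufaf4 and Ndufa10. Of all tested genes 7.11% were lower by that test.

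**Figure D5:**
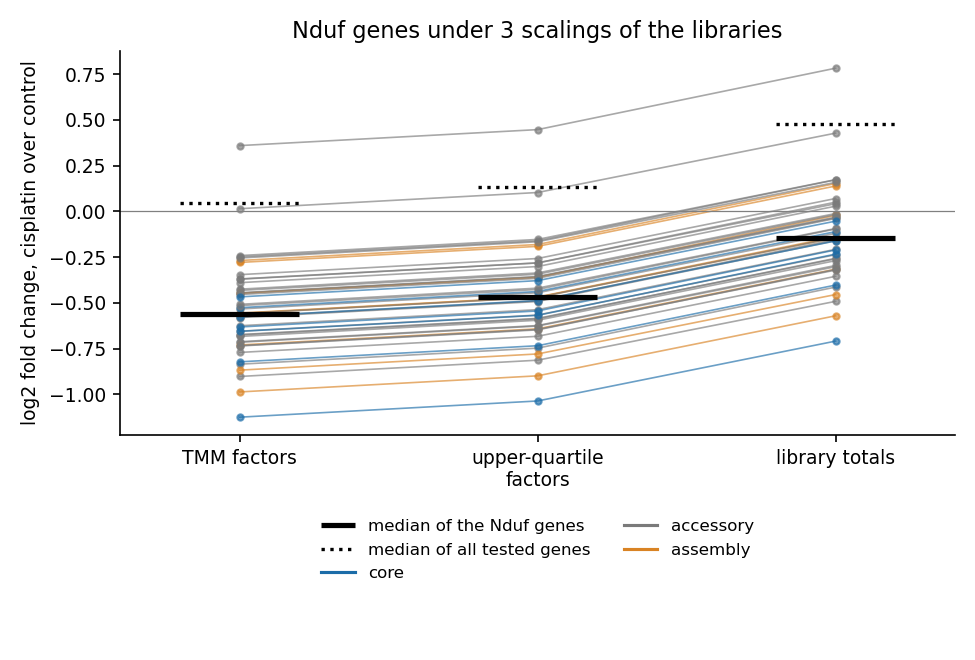
Log2 fold change, cisplatin over control (vertical axis), of the tested Nduf genes with TMM factors, upper-quartile factors and library totals. Lines are genes coloured by class, thick bars are the Nduf median and dotted bars the median of all tested genes. Both medians move up together, from −0.56 and 0.05 with TMM factors to −0.14 and 0.48 with library totals, a shift that scaling applies to nearly all genes alike.

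Levels among the members differed far more than levels between the groups. Per kilobase of the canonical transcript, a scale that depends on the transcript chosen, assembly factors had a median of 6.39 CPM per kilobase in cisplatin and 9.90 in control kidneys. On the same scale, core subunits had a median of 45.9 in cisplatin and 74.2 in control kidneys, and accessory subunits of complex I one of 61.7 in cisplatin and 95.1 in control kidneys. The order of the genes was nearly the same in both groups: over 47 genes the correlation between cisplatin and control log2 levels per kilobase was r = 0.99 (rho = 0.98). Genes are not independent replicates, and both axes share the transcript length. Between the log2 fold change and the mean log2 CPM, r was −0.39 and rho −0.23 across the 47 genes, given as a description.

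Some Nduf genes start close to another gene, and the share of all genes that do so was not computed. A protein-coding gene on the opposite strand has its start within 1000 bases of that of 20 Nduf genes, 16 of which were lower, where 40 of all 47 tested were. Of the 20 neighbours 2 were lower, 2 were higher, 14 were not called and 2 were not tested, and their median log2 fold change was 0.00, beside 22.8% lower, 24.5% higher and a median of 0.05 among all tested genes. The neighbours called lower were Hycc2 beside Ndufb3 (−0.78) and the mitochondrial ribosomal gene Mrpl36 beside Ndufs6 (−0.54). Rps28, a cytosolic ribosomal gene whose start lies 1 base from that of Ndufa7, was higher (0.41, SE 0.110, edgeR adjusted p = 0.0105). These neighbours were named after their values were seen.

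Upstream sequences are shown for 5 Nduf genes, with the bases that match a searched motif in capitals. A part of the promoters in the lower Nduf levels was not tested. The sequences are RefSeq promoter windows of build GRCm38.p6 on the strand of the gene, of which the 150 bases before the start are printed. Ndufaf1, Ndufaf4 and Ndufb4 stand for large falls, Ndufb7 for a small one (log2 fold change −0.37, SE 0.0971, edgeR adjusted p = 0.00961; above 0 and not called with library totals) and Ndufb8 for a gene not called. Ndufb7 was chosen after its values were seen. None of these 5 is among the Nduf genes with a protein-coding gene on the opposite strand that starts within 1000 bases.
Ndufaf1 (chr2:119662835-119662984, minus strand): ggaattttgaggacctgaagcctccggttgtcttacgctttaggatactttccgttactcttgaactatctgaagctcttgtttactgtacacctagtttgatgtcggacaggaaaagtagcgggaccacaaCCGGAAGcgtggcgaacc
Ndufaf4 (chr4:24897933-24898082, plus strand): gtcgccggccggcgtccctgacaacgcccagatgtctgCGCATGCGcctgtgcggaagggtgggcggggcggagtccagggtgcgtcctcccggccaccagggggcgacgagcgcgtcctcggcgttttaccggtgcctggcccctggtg
Ndufb4 (chr16:37654369-37654518, minus strand): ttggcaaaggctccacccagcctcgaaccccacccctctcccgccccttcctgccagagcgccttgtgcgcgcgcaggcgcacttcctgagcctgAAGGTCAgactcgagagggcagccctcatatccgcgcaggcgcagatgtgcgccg
Ndufb7 (chr8:83566608-83566757, plus strand): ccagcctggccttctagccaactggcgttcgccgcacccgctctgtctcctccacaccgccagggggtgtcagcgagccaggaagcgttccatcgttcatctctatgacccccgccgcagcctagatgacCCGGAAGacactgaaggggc
Ndufb8 (chr19:44555443-44555592, minus strand): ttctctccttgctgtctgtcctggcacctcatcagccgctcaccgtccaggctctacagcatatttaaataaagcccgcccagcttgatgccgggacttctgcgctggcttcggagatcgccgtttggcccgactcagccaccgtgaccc
Capitals mark CCGGAAG (bound by ETS factors) at −18 in Ndufaf1 and at −20 in Ndufb7, CGCATGCG (the core of the NRF1 site) at −112 in Ndufaf4 and AAGGTCA (a site of estrogen-related receptors) at −55 in Ndufb4, counted from the start with the base before it as −1 and given for the first base of the match. Ndufb8 has none of these. CCAAT and GGGCGG, searched as well, are not in capitals. ETS letters upstream of both a gene with a large fall and a gene with a small one depend on the choice of genes shown, and no conclusion is drawn from them.

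Windows of 300 bases, 250 before and 50 after the start, were found for 41 of the 48 Nduf genes (43 windows) and searched on both strands. CGCATGCG was in 4 windows (9.30%, against 1.87% of all 32851 windows), in Ndufa11, Ndufa8, Ndufaf4 and Ndufaf5. AAGATGGCG (YY1) was in 6 (14.0%, against 1.40%), each time 11 to 36 bases after the start, in Ndufa9, Ndufaf8, Ndufc1, Ndufs4, Ndufs6 and Ndufs7. CCGGAAG was in 6 (14.0%, against 8.86%), AAGGTCA in 3 (6.98%, against 4.72%), CCAAT (NF-Y) in 14 (32.6%, against 37.4%) and GGGCGG (Sp1) in 22 (51.2%, against 35.7%). The median GC content was 59.3%, against 52.7% over all windows. Of the 4 genes with the NRF1 letters, Ndufa8 and Ndufaf4 were lower and Ndufa11 and Ndufaf5 were not called, and the 6 genes with the YY1 letters were lower, as were 40 of the 47 tested Nduf genes. A match is a description of letters and not a bound site. Matches to different motifs overlapped in 1 place. Ndufs1 was among the genes with no window in the table.

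Copies of these genes elsewhere in the genome limit some values. Of the 48 coding sequences 9 (Ndufa12, Ndufab1, Ndufb3, Ndufb4, Ndufb11, Ndufb11b, Ndufs3, Ndufs5 and Ndufs6) have a copy of at least 95% identity over at least 60% of their length at another locus. The copies in the count files had 0 to 65 counts per library. Pairs that fit 2 places equally well were not counted, so the levels of these genes are uncertain, Ndufb4 most of all, since 2 copies match its whole coding sequence at 100% identity.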

How the data were processed

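Total RNA of 6 kidneys, 3 cisplatin and 3 control, was compared, and libraries were not pooled. The authors prepared stranded libraries, trimmed read pairs with Cutadapt, aligned them with STAR to the mouse genome (mm39, equal to GRCm39) and deposited raw counts per gene, with no normalization. The methods for RNA-seq name no version of Cutadapt or STAR, and the annotation is not given in the sources used here. STAR counts only pairs with a unique place, and pairs in the rows that name no gene made up 21.2% to 25.9% of the pairs in a file and stayed out of library sizes. Of the stranded counts, 96.7% to 97.2% were on the strand of the transcript, and these were used.

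Gene IDs were named through GENCODE vM39 (56017 of 56691 matched). Genes passed filterByExpr (minimum count 10, minimum total 15), and libraries were scaled with TMM factors and compared with the quasi-likelihood test of edgeR 4.0.16 in R 4.3.3, with Benjamini-Hochberg adjustment over 15662 genes and a threshold of 0.05. Fits were first run on simulated data in which most genes were unchanged, which cannot check the dependence on scaling. The members and all lists were chosen with earlier results of these data known. Genes named singly were core and Ndufaf genes, the 8 called accessory subunits with the lowest log2 fold change, every accessory gene called higher, not called or not tested, and Ndufa4 and Ndufa4l2. Of the other complex I genes, up to 4 per direction with the smallest adjusted p were named.

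Other tools were DESeq2 1.42.0 and limma-voom (limma 3.58.1). Other scalings were library totals, upper-quartile factors and the size factors of DESeq2. The fit was also repeated with 2 other low-count filters, with unstranded counts, without the mitochondrial genome and the 20 most abundant genes, with a replicate block, without each library in turn and against a minimum fold change of 1.5. The values of 1 core gene are counted in the totals and are not reported here. One listed gene, Coa1, was not found in the count files. The p-values measure the spread between 3 mice per group. Each SE was derived from the edgeR test, as the absolute log2 fold change over the square root of its F statistic. Small RNA-seq and chimeric-eCLIP-seq were not analysed here.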

Additional observations from a re-analysis of the deposited data

How the results depend on the processing

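The count of 40 lower Nduf genes was 37 to 42 with limma-voom, DESeq2, its size factors in edgeR, upper-quartile factors, other filters, counts that ignore the strand, without the most abundant genes, and with the replicate block (42). In the same fits 12.8% (no low-count filter) to 24.3% (size factors of DESeq2) of all tested genes were lower. Leaving out 1 library gave 34 to 45 lower Nduf genes, a median log2 fold change of −0.71 to −0.45, 7 lower core, 22 to 30 lower accessory, 5 to 8 lower assembly and 10 to 13 lower other assembly genes. The share of all tested genes that were lower moved as well, from 18.0% without control library 3 to 26.1% without cisplatin library 3. With library totals 17 Nduf genes were lower and 2 higher, the median was −0.14, and 4 core, 11 accessory, 2 assembly and 6 other assembly genes were lower. Of all tested genes 8.78% were lower in that setting. With a minimum fold change of 1.5, 6 Nduf, 2 core, 2 accessory, 2 assembly and 4 other assembly genes were lower, beside 7.11% of all tested genes. With library totals signs reversed in 9 Nduf genes, of which Ndufa12 (0.07), Ndufa2 (0.04), Ndufa3 (0.03) and Ndufb7 (0.05) had been called lower and 5 had not been called, Ndufaf5 (0.15), Ndufaf7 (0.14), Ndufa11 (0.17), Ndufb6 (0.16) and Ndufb8 (0.17). Ndufa7 (0.01) had −0.0135 with DESeq2, −0.0137 with its size factors in edgeR, −0.0011 with the replicate block, and −0.15 to 0.15 when 1 library was left out. Same-numbered cisplatin and control libraries deviated together with r of 0.133, 0.142 and 0.0997, each the highest for its library, which is a hint of pairing from the data and not from the labels, and the pairs are taken to share only a number. With the replicate block Ndufa11 (−0.25, edgeR adjusted p = 0.0298) and Ndufaf7 (−0.29, edgeR adjusted p = 0.0391) were called lower as well. The precision of Ndufa4l2, with 32 to 65 counts per library, is limited by depth.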

Other observations

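Of the 7 genes with Nduf names that are annotated as pseudogenes or a noncoding RNA, Ndufa12-ps had the most pairs, with 62, 60 and 52 counts in cisplatin libraries 1, 2 and 3 and 53, 60 and 65 counts in control libraries 1, 2 and 3, so that the groups overlapped. The other 6 had 0 to 17 counts per library.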
